A study of Panax japonicus with 15 samples.

Results

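A set of 99 transcript clusters in the fruit wall of Panax japonicus stood high in the B and P periods of fruit colour and low in the G, Y and R periods. They were selected on measured expression, from 462117 transcript clusters in all. A transcript cluster was taken if each of the 6 B and P libraries lay above each of the 9 G, Y and R libraries. The lower of its B and P means also had to exceed the highest of its G, Y and R means by at least 1 on the log2(TPM + 1) scale, a distance called the gap here. The G, Y and R means had to lie within 1 of each other, and mean TPM had to be at least 5 in both B and P. TPM is read abundance divided by transcript length and scaled to a fixed library total.

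Panax japonicus is a ginseng relative used in herbal medicine. The libraries came from washed fruit whose seeds had been cut away, with the frozen, ground fruit wall (pericarp) used for RNA, as the labels' protocols have it. Each of the 5 periods, labelled B, P, G, Y and R, had 3 biological replicates, 15 libraries in all, and no period is labelled as a control. All plants are described as growing in high mountain areas, with no agent, strain or genotype named for any period. The letters are not spelled out in the labels and no order of the periods is given, so the letters are kept. Nothing in the labels ties a replicate to a plant or a day, so the p-values below speak only of differences against the scatter of these libraries, part of which may be technical.

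As background, the colour of a ripening fruit wall depends on which pigments its cells hold. Green comes from chlorophyll in chloroplasts, and yellow and orange often from carotenoids. Red, purple or blue often comes from anthocyanins, which are made by the flavonoid pathway from phenylalanine, though the pigment behind a colour differs between fruits. Ripening fruit usually breaks down chlorophyll while carotenoids or anthocyanins build up, and the genes of these pathways are switched at the level of transcription. Transcript cluster is the name used here for a feature of the deposited table, whose identifiers all begin with the word Cluster; how the features were built is not stated. The table pairs no identifier with a gene name, so no pigment gene was looked for among the 99, no role is given to any of them, and the tissue label was not checked against marker genes. Sequences are not shown for the same reason.

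The 4 conditions narrowed the table in steps. A mean of at least 5 TPM in both B and P was met by 20858 transcript clusters, which serve below as the comparison set. All 6 B and P libraries lay above all 9 others for 435 of them, the G, Y and R means were within 1 of each other for 216 of these, and a gap of at least 1 left 99. Since these values chose the members, their levels and gaps are given as a description with no test. All 99 passed the filter of at least 1 TPM in at least 3 libraries that was used for testing. Every member carried the identifier prefix 64249, which 99.7% of the comparison set carries too.

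Together the 99 made up a small part of the RNA. Their TPM summed to 2072, 2214 and 2045 in B replicates 1, 2 and 3, and to 2337, 2332 and 1753 in P replicates 1, 2 and 3. The sums were 399, 348 and 313 in the G libraries, 395, 347 and 413 in the Y libraries, and 439, 464 and 508 in the R libraries. The period means were 2110.3 ± 90.9 in B, 2141 ± 336 in P, 353 ± 43.2 in G, 385 ± 34.1 in Y and 469.9 ± 35.0 in R (SD, n = 3 each). B and P thus overlapped, P replicate 3 was the lowest of the 6, and each R library lay above each G and Y library. In the B and P libraries the members held between 0.175% and 0.234% of TPM.

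**Figure D1:**
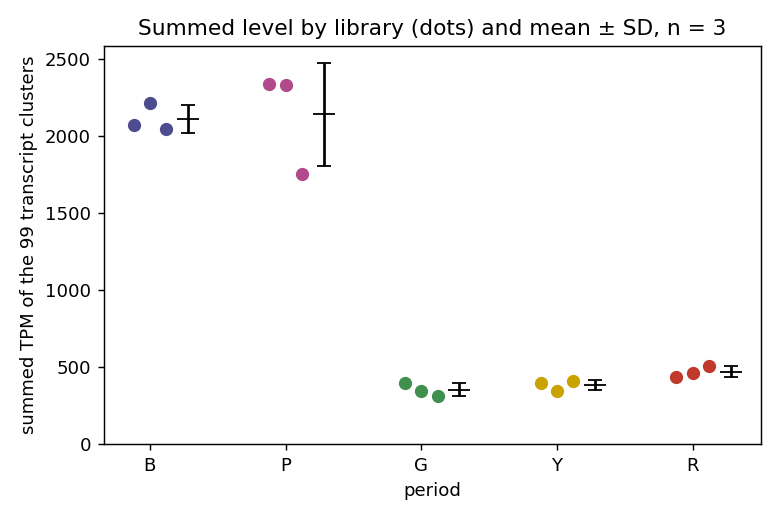
Summed TPM of the 99 transcript clusters (y axis, TPM) in each library by period (x axis). Dots are libraries, and bars are the mean ± SD of 3 libraries; P replicate 3, at 1753, lies below the other 5 B and P libraries, which run from 2045 to 2337.

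How B compares with P in this sum depends on the scaling. A median-ratio factor compares a library with the average of all 15 over transcript clusters present in every library. The P libraries had factors of 0.843 to 0.871, below the 0.940 to 1.13 of the other 12 libraries. P replicates 1 and 2 had 97466 and 130422 transcript clusters above 0, the lowest of the 15. P replicate 3 had 187300, the highest of the 15, so the P libraries were unlike each other in this. With median-ratio scaling the members' sums were 2771, 2689 and 2013 in the P libraries against 1836, 2099 and 2095 in the B libraries, so P replicates 1 and 2 then stood above every B library and P replicate 3 within the range of the B libraries. The read depth behind each value is unknown, and in tissue RNA fewer cells of a type cannot be told apart from less RNA per cell.

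The members ranged from rare to moderately abundant. Mean TPM over the 6 B and P libraries ran from 5.21 to 129 with a median of 11.7, and it was under 10 for 38 members, from 10 to 100 for 57 and at least 100 for 4. Over the 9 G, Y and R libraries the mean ran from 0 to 42.3 with a median of 1.85. The 8 most abundant members held 35.4% of the members' TPM in B and 35.9% in P. They held 46.9% of it in G, 44.2% in Y and 42.9% in R.

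**Figure D2:**
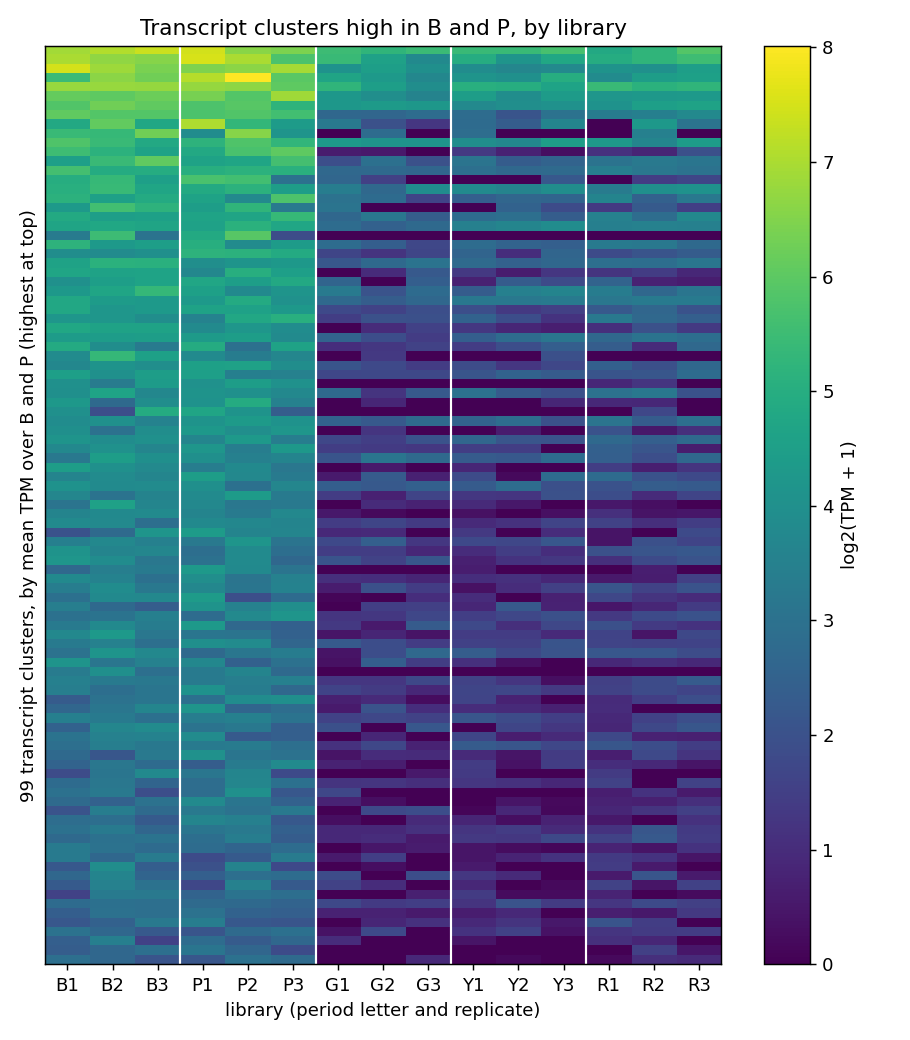
Level of each of the 99 transcript clusters (rows, ordered by mean TPM over B and P) in each of the 15 libraries (columns), as log2(TPM + 1) by colour. The step between the B and P columns and the rest is what chose the rows; the darkest cells are values listed at 0, which 2 rows show in all 9 G, Y and R libraries.

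The most abundant member, Cluster-64249.125503, measured 118, 135 and 166 TPM in the B libraries and 175, 95.0 and 84.7 TPM in the P libraries. It was far from silent elsewhere, with a lowest value of 27.7, a median of 42.2 and a highest value of 58.0 TPM over the 9 G, Y and R libraries. P replicate 1 was its highest library and the P libraries spanned the range of the B libraries.

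Cluster-64249.133153 measured 126, 102 and 92.5 TPM in B and 184, 125 and 52.5 TPM in P. In the 9 other libraries its lowest, median and highest values were 12.8, 30.1 and 44.7 TPM. Its P replicate 3, at 52.5 TPM, came close to R replicate 3, at 44.7 TPM, while its other 5 high libraries were at 92.5 TPM or more.

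Cluster-64249.121303 was more clearly set apart. It measured 179, 113 and 83.6 TPM in B and 86.7, 97.8 and 121 TPM in P, against 11.9 to 21.7 TPM with a median of 15.3 in the other 9. Its lowest high library lay 1.90 above its highest low library on the log2(TPM + 1) scale, against a median of 0.61 over the 99.

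Cluster-64249.261676 was the most uneven of the abundant members. It measured 42.7, 97.4 and 76.7 TPM in B and 139, 257 and 61.5 TPM in P, and 12.1 to 30.6 TPM with a median of 18.7 in the other 9. P replicate 2 held 6.02 times the level of B replicate 1.

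Cluster-64249.108132 was level in B, at 109, 108 and 107 TPM, and measured 106, 98.6 and 64.0 TPM in P. Its 9 other libraries ran from 14.2 to 42.5 TPM with a median of 32.5. On the TPM as deposited all 3 P libraries lay under the B libraries, replicate 1 by the least and replicate 3 by the most. This order depends on the scaling. With their median-ratio factors of 0.843 and 0.867, P replicates 1 and 2 stand above every B library, while P replicate 3 stays below.

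Cluster-64249.130220 went the other way in P replicate 3. It measured 68.9, 63.7 and 72.5 TPM in B and 80.9, 57.9 and 115 TPM in P, and 10.9 to 20.9 TPM with a median of 17.8 elsewhere. P replicate 3 was its highest library, so the low sum of that library was not shared by every member.

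Cluster-64249.232997 measured 56.0, 76.3 and 65.5 TPM in B and 54.2, 59.4 and 36.3 TPM in P, with 12.7 to 23.4 TPM and a median of 17.8 elsewhere. Cluster-64249.130393 measured 66.0, 57.4 and 57.2 TPM in B and 52.9, 55.9 and 47.0 TPM in P, with 3.20 to 12.7 TPM and a median of 6.14 elsewhere. The second had a mean 7.73 times as high in the B and P libraries as in the rest, the largest such ratio among these 8, and the first 3.27 times.

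**Figure D3:**
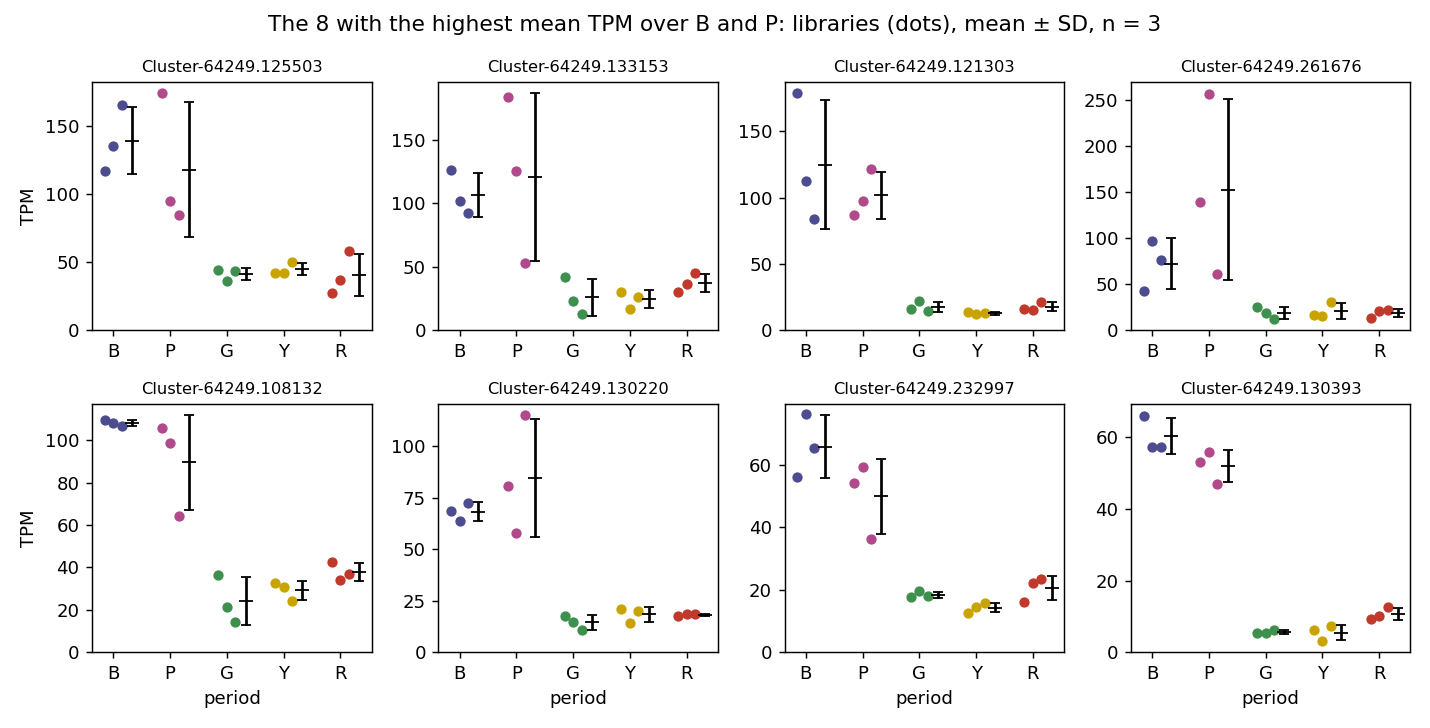
TPM (y axes, each from 0) of the 8 most abundant members in each library, by period (x axes). Dots are libraries and bars the mean ± SD of 3; the P libraries spread most in Cluster-64249.261676, from 61.5 to 257 TPM, and the B libraries least in Cluster-64249.108132, from 107 to 109 TPM.

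Cluster-64249.125503, Cluster-64249.108132 and Cluster-64249.133153 were also the 3 with the highest level in G, Y and R, at period means from 24.0 to 44.8 TPM there. For these the pattern was a difference of level and not of presence. In all, 52 of the 99 were above 0 in all 9 G, Y and R libraries, 34 were listed at 0 in 1 to 4 of them, 11 in 5 to 8, and 2 in all 9.

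The gap ran from 1.01 to 3.95 with a median of 1.65. It was under 1.5 for 39 members, at least 2 for 30 and at least 3 for 9. The log2(TPM + 1) scale compresses low values, so ratios of mean TPM are given beside the gaps. Both are also linked to the low level by the choice of members. The rule asked for at least 5 TPM in B and in P, and the classes below are cut on the low mean. Wider gaps and larger ratios in the lowest class are thus partly built in. Among the 31 members with a mean under 1 TPM in G, Y and R, the median gap was 2.08, while among the 46 from 1 to 5 TPM it was 1.49 and among the 22 at 5 TPM or more it was 1.32. The median ratio of mean TPM over the B and P libraries to that over the other 9 was 16.1 in the class under 1 TPM, without the 2 members listed at 0 throughout, 5.19 in the class from 1 to 5 TPM and 3.85 in the class at 5 TPM or more. Over the 97 members that were not listed at 0 throughout the low periods, the ratio ran from 2.51 to 82.6 with a median of 6.71.

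The member with the widest gap, 3.95, was Cluster-64249.227258, which was listed at 0 in all 9 G, Y and R libraries. It measured 9.01, 44.0 and 7.21 TPM in the B libraries and 28.1, 59.7 and 2.67 TPM in the P libraries. This was also the most uneven member of all 99, its highest B or P library being 22.3 times its lowest. The other one listed at 0 in those 9 libraries, Cluster-64249.153558, was steadier and lower, at 8.98, 14.9 and 6.68 TPM in B and 8.88, 11.2 and 5.71 TPM in P, with a gap of 3.22. With no counts behind the values, a 0 is given as listed and no fold is given against it.

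Cluster-64249.95781 combined a wide gap, 3.80, with low but detected levels elsewhere. It measured 45.2, 34.3 and 23.6 TPM in B and 27.4, 51.4 and 64.5 TPM in P, against 0 to 2.84 TPM with a median of 0.720 in the other 9. Its mean was 44.7 times as high in B and P as in the rest, and its lowest high library lay 2.68 above its highest low one on the log2(TPM + 1) scale.

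Cluster-64249.130760 and Cluster-64249.349903 had gaps nearly as wide but libraries that almost met. Cluster-64249.130760 measured 42.1, 40.6 and 76.4 TPM in B and 14.0, 92.6 and 16.6 TPM in P, and was listed at 0 in 6 of the other 9 libraries and at 6.12, 6.35 and 10.2 TPM in the remaining ones. Cluster-64249.349903 measured 30.6, 40.2 and 21.9 TPM in B and 50.9, 47.0 and 6.92 TPM in P, and at most 5.32 TPM elsewhere. In these 2 members the lowest P library cleared the highest low library by 0.42 and 0.33 on the log2(TPM + 1) scale. In Cluster-64249.130760 P replicate 3, at 16.6 TPM, was also near the highest low value of 10.2 TPM.

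Cluster-64249.167347 was level in B, at 24.9, 23.3 and 24.0 TPM, and measured 12.2, 31.4 and 22.2 TPM in P. Elsewhere it ran from 0 to 3.68 TPM with a median of 1.32, a gap of 3.25. P replicate 1 was its lowest high library, and it still lay 1.49 above G replicate 3, its highest low library, on the log2(TPM + 1) scale.

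The 3 members with the highest ratio of mean TPM between the high and the low libraries, named after their values were seen, were all close to absent in G, Y and R. Cluster-64249.229568 measured 5.54, 9.77 and 8.79 TPM in B and 18.7, 13.0 and 7.55 TPM in P, and was listed at 0 in 7 of the other 9 libraries, with 0.570 TPM in Y replicate 1 and 0.580 TPM in R replicate 2. Cluster-64249.133247 measured 15.2, 9.13 and 20.3 TPM in B and 15.6, 20.8 and 15.4 TPM in P, and outside these periods it was above 0 in R alone, at 0.840 TPM in replicate 1 and 1.37 TPM in replicate 2. Cluster-64249.142147 measured 15.2, 2.76 and 29.2 TPM in B and 24.9, 16.5 and 4.13 TPM in P, and 2.26 TPM in R replicate 2 as its single other value above 0. The ratios were 82.6, 65.5 and 61.5, and each rests on the 1 or 2 low libraries with a value above 0, since a listed 0 can stand for a failed estimate.

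At the edge of the rule the separation was narrow. Cluster-64249.135863, with the smallest gap at 1.01, measured 7.10, 16.8 and 12.5 TPM in B and 5.71, 7.79 and 9.19 TPM in P, against 0.340 to 5.55 TPM elsewhere. Cluster-64249.116527, at 1.02, measured 18.5, 25.4 and 39.1 TPM in B and 22.4, 13.1 and 16.6 TPM in P, against 3.13 to 11.2 TPM elsewhere. Just outside, Cluster-64249.121787 met every other condition at a gap of 0.9995, with means of 70.1 TPM in B, 74.5 in P, 34.8 in G, 17.7 in Y and 26.3 in R. Cluster-64249.125753 followed at 0.994, with means of 9.30, 12.9, 1.96, 2.43 and 4.27 TPM in B, P, G, Y and R. In the first of these the G period lay above Y and R, unlike in most members.

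How evenly a member was expressed across the 6 B and P libraries varied widely. The highest of the 6 was a median of 2.65 times the lowest, with a range from 1.23 to 22.3 times. The most even was Cluster-64249.185535, at 10.1, 8.55 and 8.26 TPM in B and 8.67, 9.68 and 10.2 TPM in P, against 0.220 to 3.88 TPM elsewhere. Next came Cluster-64249.130267, at 6.03, 6.75 and 6.52 TPM in B and 5.76, 5.72 and 4.81 TPM in P, against 1.29 to 3.18 TPM elsewhere, and then Cluster-64249.130393 from the abundant group. Requiring every high library to clear every low one favours even members, so this evenness is partly what the choice asked for.

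Among the 6 high libraries, P replicate 3 was the lowest for 32 members and the other 5 for 11 to 16 members each. In the comparison set the order was another one: P replicate 1 was lowest for 30.8%, P replicate 2 for 20.2% and P replicate 3 for 16.0%. With median-ratio scaling B replicate 1 was the lowest for 26 members, P replicate 3 for 25 and P replicate 1 for 7, while in the comparison set P replicate 1 was still lowest most often. The spread within a period was larger in P than in B for 62 of the 99, or 62.6%, and for 61.3% of the comparison set. The median SD on the log2(TPM + 1) scale was 0.36 in B and 0.44 in P over the members, and 0.38 and 0.47 over the comparison set. Across the members, which are not independent replicates, levels in a B library and a P library correlated at a median Pearson r of 0.785 over the 9 pairs, with a range from 0.718 to 0.822. Pairs among the G, Y and R libraries stood higher, at a median of 0.830 over 36 pairs. A B or P library with a G, Y or R library gave 0.675 over 54 pairs. The rule held the G, Y and R means within 1 of each other, set no such cap between B and P, and asked for a gap between the groups. The order of these correlations is thus partly built in.

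The P period against the B period is the pairwise comparison whose size and direction no condition of the rule names, and it asks whether the members differed between their high periods. No member was called in either direction by limma at a Benjamini-Hochberg adjusted p under 0.05 over all 138664 tested transcript clusters. Over all tested transcript clusters 0.211% were called higher in P and 0.509% lower, and over the 20724 tested ones with at least 5 TPM in B and in P the shares were 0.401% and 0.603%. At such shares a count of 0 in 99 is near the background. An unadjusted p under 0.05 was reached by 2 of the 99, against 14.1% of all tested transcript clusters and 17.4% of those with at least 5 TPM in B and in P. The members' share was below both, in a set whose choice asked for high values in B and in P alike. With median-ratio scaling 6 of the 99 had such a p, all 6 higher in P. The share of those with at least 5 TPM in B and in P was then 12.3%. Without P replicate 1 it was 8 of the 99 against 15.5%. The whole-table count of 999 moved up or down with single libraries. Leaving out B replicate 1, 2 or 3 gave 1499, 286 or 330 calls, and leaving out P replicate 1, 2 or 3 gave 490, 457 or 2504, while the members' count was 0 each time.

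The members' P minus B differences lay around 0 on the TPM as deposited. P was above B in 45 of the 99 and below it in 54, and the median difference was -0.04 on the log2(TPM + 1) scale, with a range from -0.96 to 1.15. Over all tested transcript clusters the median was -0.26, and over those with at least 5 TPM in both periods it was -0.27, with P above B in 28.2%. The requirement that both periods be high removes members that were low in P, so these medians are not a like-for-like comparison. Median-ratio scaling moved the median over all tested transcript clusters by 0.15. With it P was above B in 72 of the 99, at a median difference of 0.22, and in 49.1% of those with at least 5 TPM in both periods, at a median of -0.01. The members' median thus lay above the median of that set under both scalings, while its sign turned with the scaling.

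Missing the threshold does not show that B and P were alike. The 95% interval of the difference stayed within 1 in both directions for 30 members and reached 1 or beyond in at least 1 direction for 69. For those 69, a 2-fold difference on this scale in at least 1 direction was compatible with the 3 libraries a period.

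**Figure D4:**
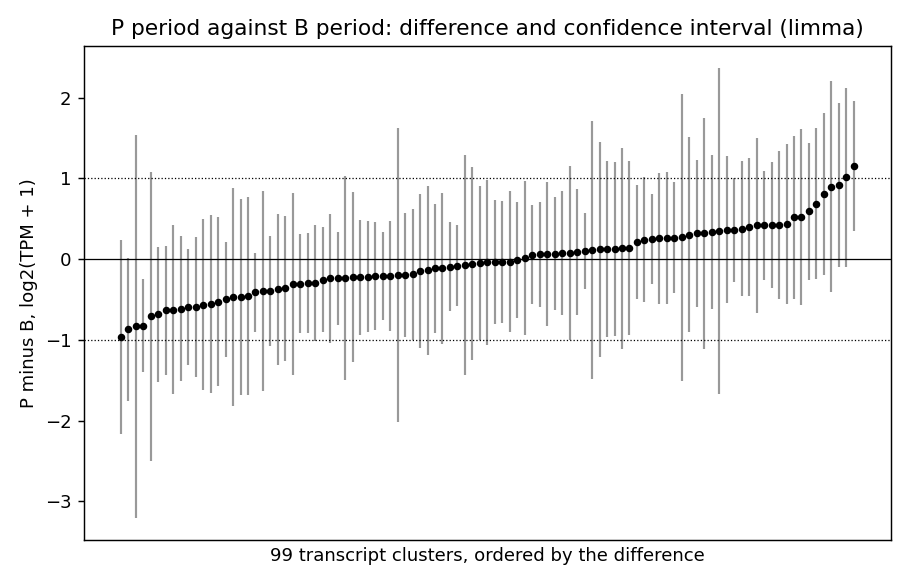
Difference between the P and B period means on the log2(TPM + 1) scale (y axis; dots) with its 95% interval from limma (lines), for the 99 transcript clusters ordered by the difference (x axis). Dotted lines mark 1 and -1; 30 intervals lie wholly between them.

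The 2 largest differences toward P were in members whose P libraries all lay above their B libraries. Cluster-64249.134449 measured 14.2, 13.4 and 14.8 TPM in B and 34.9, 34.5 and 29.0 TPM in P, and 1.09 to 5.18 TPM in the other periods. The difference was 1.15 ± 0.37 (SE; 95% interval from 0.35 to 1.96) with a limma adjusted p of 0.192, which ranged from 0.0728 to 0.383 over 23 alternatives. Cluster-64249.76347 measured 9.80, 5.68 and 4.12 TPM in B and 16.2, 10.4 and 14.4 TPM in P, a difference of 1.01 ± 0.51 (SE, limma adjusted p 0.404).

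The 2 largest toward B were Cluster-64249.139512 and Cluster-64249.135148. Cluster-64249.139512 measured 13.5, 39.6 and 22.4 TPM in B and 13.2, 9.21 and 11.8 TPM in P, a difference of -0.96 ± 0.56 (SE, limma adjusted p 0.478). Cluster-64249.135148 measured 12.5, 19.1 and 8.12 TPM in B and 7.57, 7.45 and 4.64 TPM in P, a difference of -0.87 ± 0.41 (SE, limma adjusted p 0.366). In both, the lowest B library lay close to the highest P library.

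Cluster-64249.149331, singled out after its values were seen, was the other member with an unadjusted p under 0.05 (limma) on the TPM as deposited. It measured 23.4, 33.9 and 32.9 TPM in B and 14.5, 16.6 and 18.1 TPM in P, a difference of -0.82 ± 0.27 (SE, limma adjusted p 0.194). Its B and P libraries did not overlap on the TPM as deposited, and its 9 other libraries ran from 3.50 to 7.76 TPM. The separation of B from P hangs on the scaling. With median-ratio factors of 1.13 for B replicate 1 and 0.871 for P replicate 3, those libraries come to about the same level. This member then had no unadjusted p under 0.05 (limma), since all 6 members with such a p were higher in P.

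Counting libraries that did not overlap, all 3 P libraries lay above all 3 B libraries in 3 of the 99 and below them in 7. In the comparison set the same was true of 3.04% and 16.4%. The third member with P above B, named after its values were seen, was Cluster-64249.126420, at 14.0, 15.1 and 10.8 TPM in B and 16.4, 19.5 and 16.0 TPM in P. The count above is near the background share, and the count below lies under it, as far as a set chosen for high P values can be read against it. These counts and shares are on the TPM as deposited and were not recomputed with median-ratio scaling. That scaling moved the median P minus B difference of transcript clusters with at least 5 TPM in both periods from -0.27 to -0.01, so both shares may depend on it.

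Within the low periods the rule capped the differences among G, Y and R at 1 but set no order, and R was most often the highest. Of the 94 members with 3 distinct means, R was highest in 61, Y in 19 and G in 14. That is 64.9% for R, against 37.9% among the transcript clusters of the comparison set whose G, Y and R means were within 1 of each other. With median-ratio scaling R was highest in 54 of 94, or 57.4%, against 31.8%. The R mean was above the G mean in 77 of the 99 and above the Y mean in 71, with median differences of 0.35 and 0.30 on the log2(TPM + 1) scale; with median-ratio scaling it was above G in 73 and above Y in 66. In the comparison set so restricted, R was above G in 60.1% and above Y in 46.9%, at medians of 0.11 and -0.01, and with median-ratio scaling in 48.5% and 44.9%. The comparison set was not chosen to be low in G, Y and R, so it is an unlike background in level. The median SD in R on the log2(TPM + 1) scale was 0.41 over the members and 0.22 over the whole comparison set. These contrasts among G, Y and R were part of the rule, so they were not tested.

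Single libraries showed R on top as well. Of the 97 members above 0 somewhere in G, Y and R, the highest of the 9 libraries was R replicate 1 in 20, R replicate 2 in 16 and R replicate 3 in 23. Y replicate 3 was highest in 10, and each of the other 5 libraries in 3 to 9. The number of members listed at 0 was 9, 9 and 14 in the R libraries, 14, 19 and 20 in the Y libraries, and 23, 17 and 25 in the G libraries. In the comparison set with G, Y and R means within 1 of each other, the share listed at 0 was 2.31% to 2.70% in the R libraries, 2.31% to 2.79% in Y and 2.53% to 3.26% in G. That set was not chosen to be low in these periods, so its shares at 0 are not a like-for-like background. The median member stood at 1.97, 2.34 and 2.07 TPM in the R libraries, against 1.35 to 1.60 TPM in the 6 G and Y libraries, with no overlap, and with median-ratio scaling R still lay above both, at 1.85, 2.18 and 1.92 TPM against at most 1.67. G and Y did not separate in this measure, and their medians ran from 1.43 to 1.57 and from 1.35 to 1.60 TPM.

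**Figure D5:**
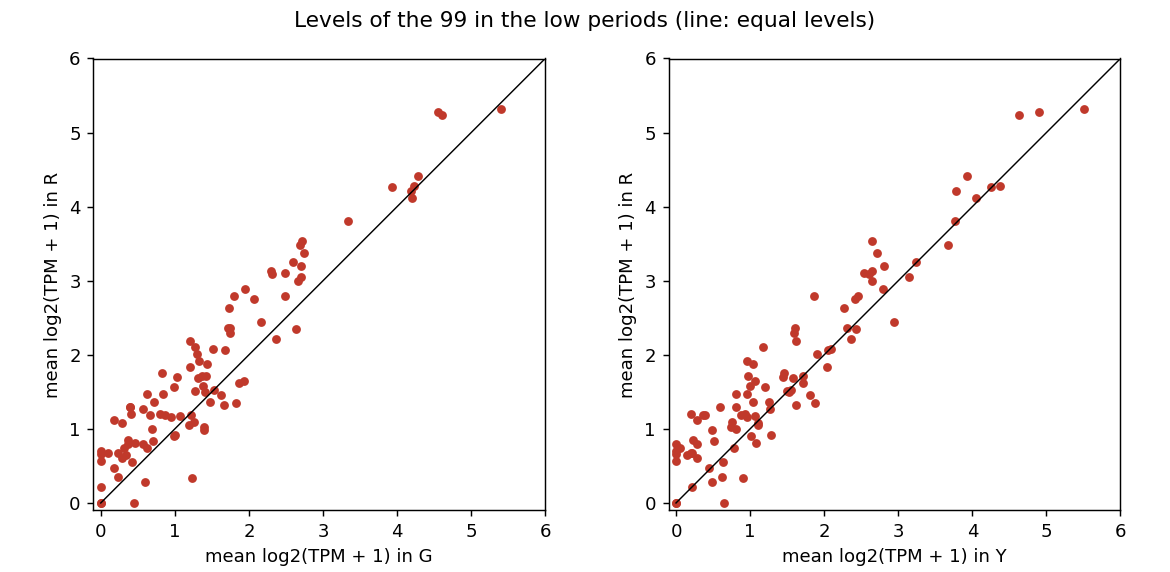
Mean log2(TPM + 1) of each of the 99 transcript clusters in R (y axes) against G (left) and Y (right); the line marks equal levels, and 2 points listed at 0 in all 3 periods coincide at the origin. More points lie above the line than below: R was above G in 77 and above Y in 71.

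Among the named members, Cluster-64249.130393 showed this order plainly, at 9.38, 9.99 and 12.7 TPM in the R libraries against 5.37, 5.26 and 6.14 in G and 6.11, 3.20 and 7.18 in Y. Cluster-64249.108132 had means of 37.9 TPM in R, 29.1 in Y and 24.0 in G, but G replicate 1, at 36.5 TPM, lay within the range of the R libraries. Cluster-64249.125503 was level, at means of 41.3, 44.8 and 40.8 TPM in G, Y and R. The 3 R libraries lay above the 3 G libraries in 17 of the 99, a share near the 17.2% in the comparison set with G, Y and R means within 1 of each other.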

How the data were processed

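RNA of fruit wall from 15 libraries, 3 for each of 5 periods, was analysed from 1 table. The unit is TPM by the name the authors gave their deposited table, and the column sums, all between 999997 and 1000003, fit it. Which tools made the table is not given in the sources used here. Builds named in the submitters' processing notes are GRCm38 and mm10, both of mouse, and how these relate to a plant's TPM values is not stated. Columns were matched to libraries by title and periods taken from the titles. Values were transformed to log2(TPM + 1), which understates changes of low values. Transcript clusters with at least 1 TPM in at least 3 libraries were tested (138664). A linear model in limma 3.58.1 under R 4.3.3, with 5 period means and a variance prior following mean expression gave the P minus B contrast, with Benjamini-Hochberg adjustment over all tested and calls at an adjusted p under 0.05; it was tested on simulated data. The replicate numbers were not used to pair the B and P libraries in the main fit. Tables and plots used Python 3.11.15, pandas 2.3.3, NumPy 2.4.6 and matplotlib 3.10.9.

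The members and the tests were chosen with earlier results of these data known. Named members are the 8 most abundant in B and P, the 6 with the widest gap, the 2 with the largest P minus B difference each way (5 each way had any been called), the 3 most even, the 2 nearest the threshold on each side and the 3 highest in G, Y and R; others are said to be chosen after their values were seen. Median-ratio scaling used the 33508 transcript clusters above 0 in all 15 libraries.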

Additional observations from a re-analysis of the deposited data

How the results depend on the processing

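No member tested was called in the P period against the B period under any of the 23 alternatives, of which 22 tested all 99 and 1, keeping features that average 10 TPM or more, tested 30 of them. The smallest adjusted p of any member was 0.0728. An unadjusted p under 0.05 was reached by 2 to 8 members, and by 10.7% to 22.8% of transcript clusters with at least 5 TPM in B and in P (limma). The 4 members named for their P minus B difference kept its direction under each alternative that tested them. Of all tested transcript clusters, 999 were called in that comparison. The number was 284 with no filter, 124 in a fit on the 6 B and P libraries alone, 414 with library weights, and 286 to 2504 when 1 library was left out. With the replicate number as a block it was 549. Same-numbered B and P libraries deviated together at correlations of 0.0092 to 0.017. Such values over all tested features cannot decide whether those libraries share a plant or a day. The rule found 57 transcript clusters with a pseudocount of 0.1, 53 of them among the 99, 30 with a gap of at least 2 and 54 with a mean of at least 10 TPM in B and P. It found 144 with median-ratio scaling, 96 of them among the 99, and 91 to 132 when 1 library was left out, of which 84 to 96 were among the 99. Which low period was highest was not recomputed beyond the scaling. TPM carries no depth, so a value listed at 0 may be a failed estimate.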
